A study of Mus musculus with 84 samples.

Results

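The nuclear genes for subunits and close partners of the oxidative phosphorylation machinery were followed across all groups of the study. The 95 members were the protein-coding genes among 41388 mouse genes whose symbol starts with Nduf, Uqcr, Atp5, Cox4, Cox5, Cox6, Cox7 or Cox8, or is Sdha, Sdhb, Sdhc, Sdhd, Cyc1 or Cycs. Of 106 table rows with such a symbol, 11 pseudogenes and noncoding genes were dropped. By function, 36 members encode subunits of complex I, 8 are complex I assembly factors (Ndufaf1 to Ndufaf8), 4 belong to complex II, 9 to complex III, 18 to complex IV and 16 to complex V, and 1 is cytochrome c (Cycs). The other members are Cox7a2l and Ndufa4l2, which are related to complex IV, and Atp5s, which is related to complex V. The rule used symbols and the protein-coding label only, though it was set with earlier results of these data known.

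Blood progenitors came from mice with a tetracycline-regulated MLL-ENL transgene, a fusion gene found in infant and adult leukemia, and from controls labelled wild type. The 84 RNA-seq libraries (43 control, 41 MLL-ENL) formed 22 groups of 4 libraries, except 4 groups of 3: P0 pGM control and all MLL-ENL (x2) groups. HPC are committed hematopoietic progenitor cells, pGM are pre-granulocyte-monocyte progenitors and GMP are granulocyte-monocyte progenitors. In a first set, all 3 populations were taken at P0 (day of birth) from neonatal liver and at 10 weeks from bone marrow, without doxycycline and labelled as fetal induction. In a second set, HPC came from bone marrow of mice aged 6 and 12 months after 8 weeks of doxycycline, labelled as adult induction. An x2 set held the 3 populations at 10 weeks from bone marrow of mice labelled MLL-ENL (x2) and from controls of its own, all again without doxycycline and labelled as fetal induction. The labels do not say what x2 stands for, or which promoter or cell type drives the transgene. P0 and 10 week samples differ in both age and tissue, which cannot be told apart, and fetal and adult induction also differ in doxycycline and age. Where nothing says that libraries of a group came from separate animals, the p-values measure the spread between these libraries.

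The smallest library held 7.62 M counts, the median library 14.75 M and the largest 29.47 M. The 120 pairs of libraries within groups all differed beyond sampling noise (chi-square per degree of freedom 8.51 to 148.74), so none was merged. The transgene rows held at least 6 counts (0.442 CPM, counts scaled to the library total) in every MLL-ENL library, while the highest control library had 8 counts (0.625 CPM), so the ranges overlapped. P0 control HPC also held monocyte, dendritic, mast cell and basophil markers, with values given below. In 10 week controls, granulocyte-monocyte markers followed the labelled populations. The summed level of 8 granulocyte-monocyte genes such as Mpo and Elane was 2490 to 4219 CPM in 10 week control HPC, 16484 to 25767 in pGM and 93586 to 118832 in GMP. At 10 weeks, 2 MLL-ENL libraries went against their labels: this sum was 21188 CPM in the library labelled 73 HPC, against 2534 to 4206 in the other 3 of its group, and 3305 CPM in the library labelled 73 pGM, against 19671 to 29738. Counts of called members and medians in comparisons that use them are given with and without them.

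Oxidative phosphorylation takes place in the inner mitochondrial membrane. Complex I (NADH dehydrogenase) and complex II (succinate dehydrogenase, also an enzyme of the citric acid cycle) pass electrons to ubiquinone, complex III passes them on to cytochrome c, and complex IV (cytochrome c oxidase) to oxygen. Complexes I, III and IV pump protons, and complex V (ATP synthase) uses the proton gradient to make ATP. Most subunits are encoded in the nucleus and a small core set in mitochondrial DNA. Resting blood stem cells are known to rely little on this pathway, and differentiating progenitors to rely on it more. Several subunits of complex IV exist as tissue isoforms: Cox4i2 is known from lung and low oxygen, Cox6a2, Cox7a1 and Cox8b from heart and skeletal muscle, and Cox6b2, Cox7b2 and Cox8c from testis.

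Shared control through nuclear respiratory factor 1 (NRF1), ETS factors such as GABPA, and YY1 is known for genes of this family, so promoters were read from RefSeq (GRCm38.p6), from 250 bases before to 50 bases after the start. A promoter was matched by symbol for 75 of the 95 members, and motifs were searched on both strands. The NRF1 core GCGCATGCG was present for 11 of 75 members (14.7%) and for 1.95% of 27025 genes. The ETS motif CCGGAAG was present for 18 members (24.0%, against 9.93% of all genes), and the YY1 motif AAGATGGCG for 8 (10.7%, against 1.64%). At least 1 of these 3 motifs was found for 31 members. The shares were closer for GGGCGG (45.3% of members, 38.2% of all genes) and CCAAT (45.3% and 41.1%), and TATAAA was found for 9.33% of members and 15.7% of all genes. A match describes letters and does not show that a factor binds. The 6 promoters below are of members that the results turn on or that show a motif, as the 250 bases before the start, 5′ to 3′ on the gene's strand. Capitals mark the NRF1 core in Cycs (chr6:50566570-50566819, minus strand) and Cox6a1 (chr5:115348959-115349208, minus), the ETS motif in Sdhd (chr9:50603850-50604099, minus), CCAAT in Atp5g1 (chr11:96075632-96075881, minus), ETS and CCAAT in Cox6b1 (chr7:30626115-30626364, minus), and CCAAT and GGGCGG in Cox6b2 (chr7:4753095-4753344, minus), on either strand.
Cycs: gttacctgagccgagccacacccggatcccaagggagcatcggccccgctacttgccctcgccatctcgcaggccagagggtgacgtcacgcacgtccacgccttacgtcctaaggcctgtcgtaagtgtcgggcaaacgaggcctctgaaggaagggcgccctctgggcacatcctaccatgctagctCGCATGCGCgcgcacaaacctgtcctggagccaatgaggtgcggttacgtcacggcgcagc
Cox6a1: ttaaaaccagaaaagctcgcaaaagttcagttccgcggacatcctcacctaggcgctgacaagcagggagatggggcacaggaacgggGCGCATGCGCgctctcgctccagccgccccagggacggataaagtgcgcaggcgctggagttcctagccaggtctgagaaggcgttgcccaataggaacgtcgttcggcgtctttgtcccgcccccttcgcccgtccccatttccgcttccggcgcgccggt
Sdhd: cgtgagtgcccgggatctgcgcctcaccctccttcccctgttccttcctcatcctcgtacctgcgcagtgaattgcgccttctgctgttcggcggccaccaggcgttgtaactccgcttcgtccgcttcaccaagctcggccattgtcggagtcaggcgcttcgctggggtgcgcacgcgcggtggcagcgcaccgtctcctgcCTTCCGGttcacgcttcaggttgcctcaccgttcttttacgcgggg
Atp5g1: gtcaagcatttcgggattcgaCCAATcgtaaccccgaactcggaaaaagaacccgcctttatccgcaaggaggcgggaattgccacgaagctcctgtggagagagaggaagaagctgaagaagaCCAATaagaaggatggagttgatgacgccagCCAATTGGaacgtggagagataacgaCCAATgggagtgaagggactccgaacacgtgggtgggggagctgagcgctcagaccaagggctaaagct
Cox6b1: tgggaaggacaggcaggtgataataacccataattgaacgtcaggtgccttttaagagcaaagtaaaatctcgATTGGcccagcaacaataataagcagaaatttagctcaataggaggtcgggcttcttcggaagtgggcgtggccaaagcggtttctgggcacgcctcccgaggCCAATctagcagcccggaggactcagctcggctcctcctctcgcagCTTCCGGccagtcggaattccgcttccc
Cox6b2: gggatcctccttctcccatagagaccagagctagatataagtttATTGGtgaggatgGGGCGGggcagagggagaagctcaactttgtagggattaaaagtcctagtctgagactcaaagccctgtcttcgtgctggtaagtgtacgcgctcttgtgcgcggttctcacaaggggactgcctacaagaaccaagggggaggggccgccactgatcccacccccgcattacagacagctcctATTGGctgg

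The YY1 motif lay at a recurrent place. In 7 of the 8 members with it, it stood after the start on the gene's strand, between positions 11 and 36. Its place was not counted over all 443 genes with the motif, so it is not shown to be particular to the members. The motif contains the letters ATG, and whether these are the start codon of each gene was not tested. Short stretches around it, with the motif in capitals, are shown for 5 complex I genes and an ATP synthase gene: Ndufa9 (chr6:126849097-126849125, minus), Ndufs4 (chr13:114388045-114388069, minus), Ndufs6 (chr13:73328433-73328459, minus), Ndufs7 (chr10:80249463-80249491, plus), Ndufc1 (chr3:51408915-51408943, minus) and Atp5j2 (chr5:145191500-145191528, minus).
Ndufa9: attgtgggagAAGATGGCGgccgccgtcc
Ndufs4: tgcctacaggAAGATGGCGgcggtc
Ndufs6: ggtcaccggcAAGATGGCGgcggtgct
Ndufs7: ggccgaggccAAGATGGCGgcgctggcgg
Ndufc1: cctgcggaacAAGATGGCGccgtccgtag
Atp5j2: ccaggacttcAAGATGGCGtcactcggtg

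Per length of exon, members differed widely in level. The highest, as the mean over all libraries in CPM per kilobase, were Cox4i1 with 864, Atp5a1 with 724, Uqcr10 with 709, Ndufa4 with 657, Cox6b1 with 601, Sdhd with 580, Atp5c1 with 547 and Cox6a1 with 518. The isoforms of other tissues were far lower: Cox6b2 had 63.3 CPM per kilobase, Cox6a2 14.8, Cox4i2 13.1 and Cox7a1 2.79. So each complex IV subunit with paralogs was carried mainly by its common form, with Cox4i1 over Cox4i2, Cox6a1 over Cox6a2 and Cox6b1 over Cox6b2. The muscle and testis forms Cox8b, Cox7b2 and Cox8c each had 0 counts in 80 of 84 libraries, and Ndufa4l2 had 0 in 50. Among the 3 genes for the c subunit of ATP synthase, Atp5g3 had 176 CPM per kilobase, Atp5g1 3.99 and Atp5g2 1.28. Low values of Cycs (2.68), Ndufab1 (1.6), Atp5g2 and Atp5l (0.604) are uncertain, since 28.5%, 9.3%, 38.3% and 77.5% of their 50-base windows also occur in transcripts of other genes (GENCODE vM21), so reads could be left uncounted or split. The same holds for Ndufaf2 (64.1% of windows), Atp5o (45.6%), Uqcrb (43.4%), Ndufb4 (37.0%), Atp5f1 (33.1%), Cox5a (32%) and Ndufb6 (31.6%). Cox7c had 4977 counts over all libraries and 22.1% of such windows, so its low values are uncertain too. Values per kilobase and their ranking also depend on the exon length used, which for some members far exceeded their count of spliced windows. It was 1756 bases against 372 windows in Atp5e, 6443 against 543 in Atp5l and 4522 against 574 in Ndufb7, so their values could be too low.

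A score, the mean log2 CPM over the 91 members with a mean log2 CPM of at least 0, summarised each library (Ndufa4l2, Cox8b, Cox7b2 and Cox8c lie outside it). GMP had the highest group means and HPC the lowest. The order was not strict: P0 control HPC libraries scored 7.019 to 7.281 and x2-set control pGM libraries 6.882 to 7.145. The highest means were 7.51 ± 0.21 (SD, n = 4) in 10 week MLL-ENL GMP and 7.48 ± 0.36 (n = 4) in 10 week control GMP, followed by P0 MLL-ENL GMP (7.40 ± 0.07, n = 4) and P0 control GMP (7.31 ± 0.10, n = 4). The lowest were MLL-ENL (x2) HPC (6.65 ± 0.14, n = 3), 12 month MLL-ENL HPC (6.67 ± 0.10, n = 4), 12 month control HPC (6.75 ± 0.10, n = 4) and P0 MLL-ENL HPC (6.75 ± 0.14, n = 4). Neighbours in this order differed by less than the pooled SD within groups, 0.184, so only distant groups stand apart. As a share of all counts, the members were highest in P0 pGM (mean 3.146% with MLL-ENL and 3.115% in controls). This share was 3.013% and 2.959% in 10 week MLL-ENL and control GMP, and 2.937% and 2.809% in those of P0. In libraries that share a number, GMP scored above pGM and pGM above HPC in 4 of 4 first-set controls at 10 weeks, by 0.01 to 0.70 and by 0.04 to 0.51. The same order held in 4 of 4 controls of the x2 set (0.22 to 0.37 and 0.12 to 0.38) and in 3 of 3 MLL-ENL (x2) numbers. In 10 week MLL-ENL libraries GMP was above pGM in 4 of 4, but pGM above HPC in 2 of 4 (not in 73, whose labels are in doubt, and 74). At P0, GMP was above pGM in 2 of 3 control numbers (not in number 3) and in 4 of 4 MLL-ENL numbers, and pGM above HPC in 3 of 3 and 4 of 4.

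**Figure D1:**
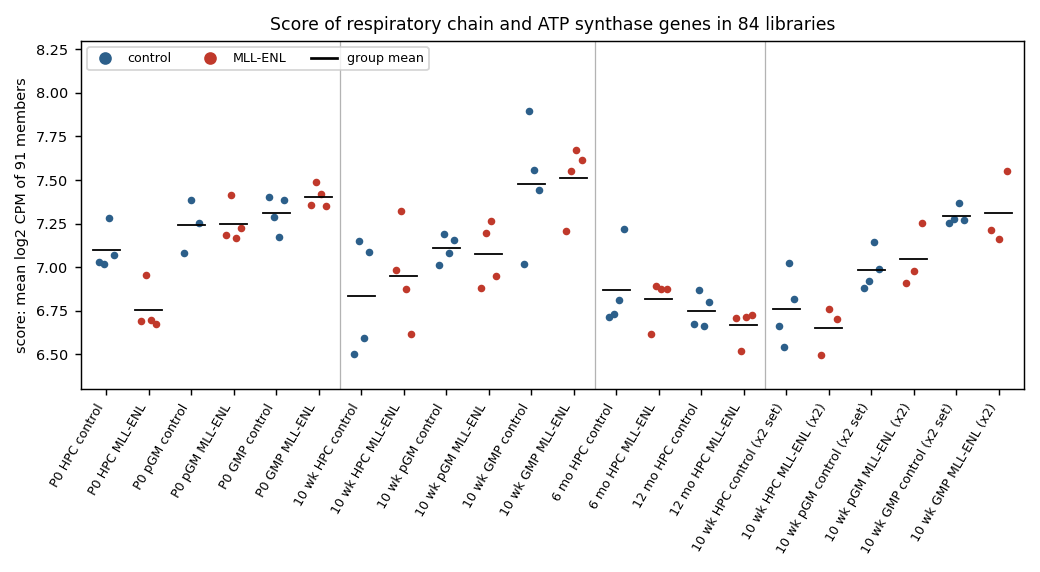
Score of the 91 members (mean log2 CPM, vertical axis) in each of 84 libraries, by group (horizontal axis), with blue points for control, red for MLL-ENL and a black bar for the group mean. GMP groups sit highest, and P0 HPC is the group pair where the MLL-ENL libraries (6.67 to 6.96) lie wholly below the controls (7.02 to 7.28).

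Most members varied little between groups and a few varied much. Among members with a mean log2 CPM of at least 1, the SD of the 22 group means was largest for Cox6a2 (1.21 log2 units), Cox5a (1.13), Cox4i2 (1.13), Cyc1 (0.88) and Atp5l (0.71). It was smallest for the assembly factor Ndufaf1 and for Atp5s (both 0.13), Ndufa12 (0.15), Ndufs3 and Uqcrh (both 0.17). So 2 of the 5 most variable members were tissue isoforms of complex IV, while Cox5a, Cyc1 and Atp5l are common subunits.

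**Figure D2:**
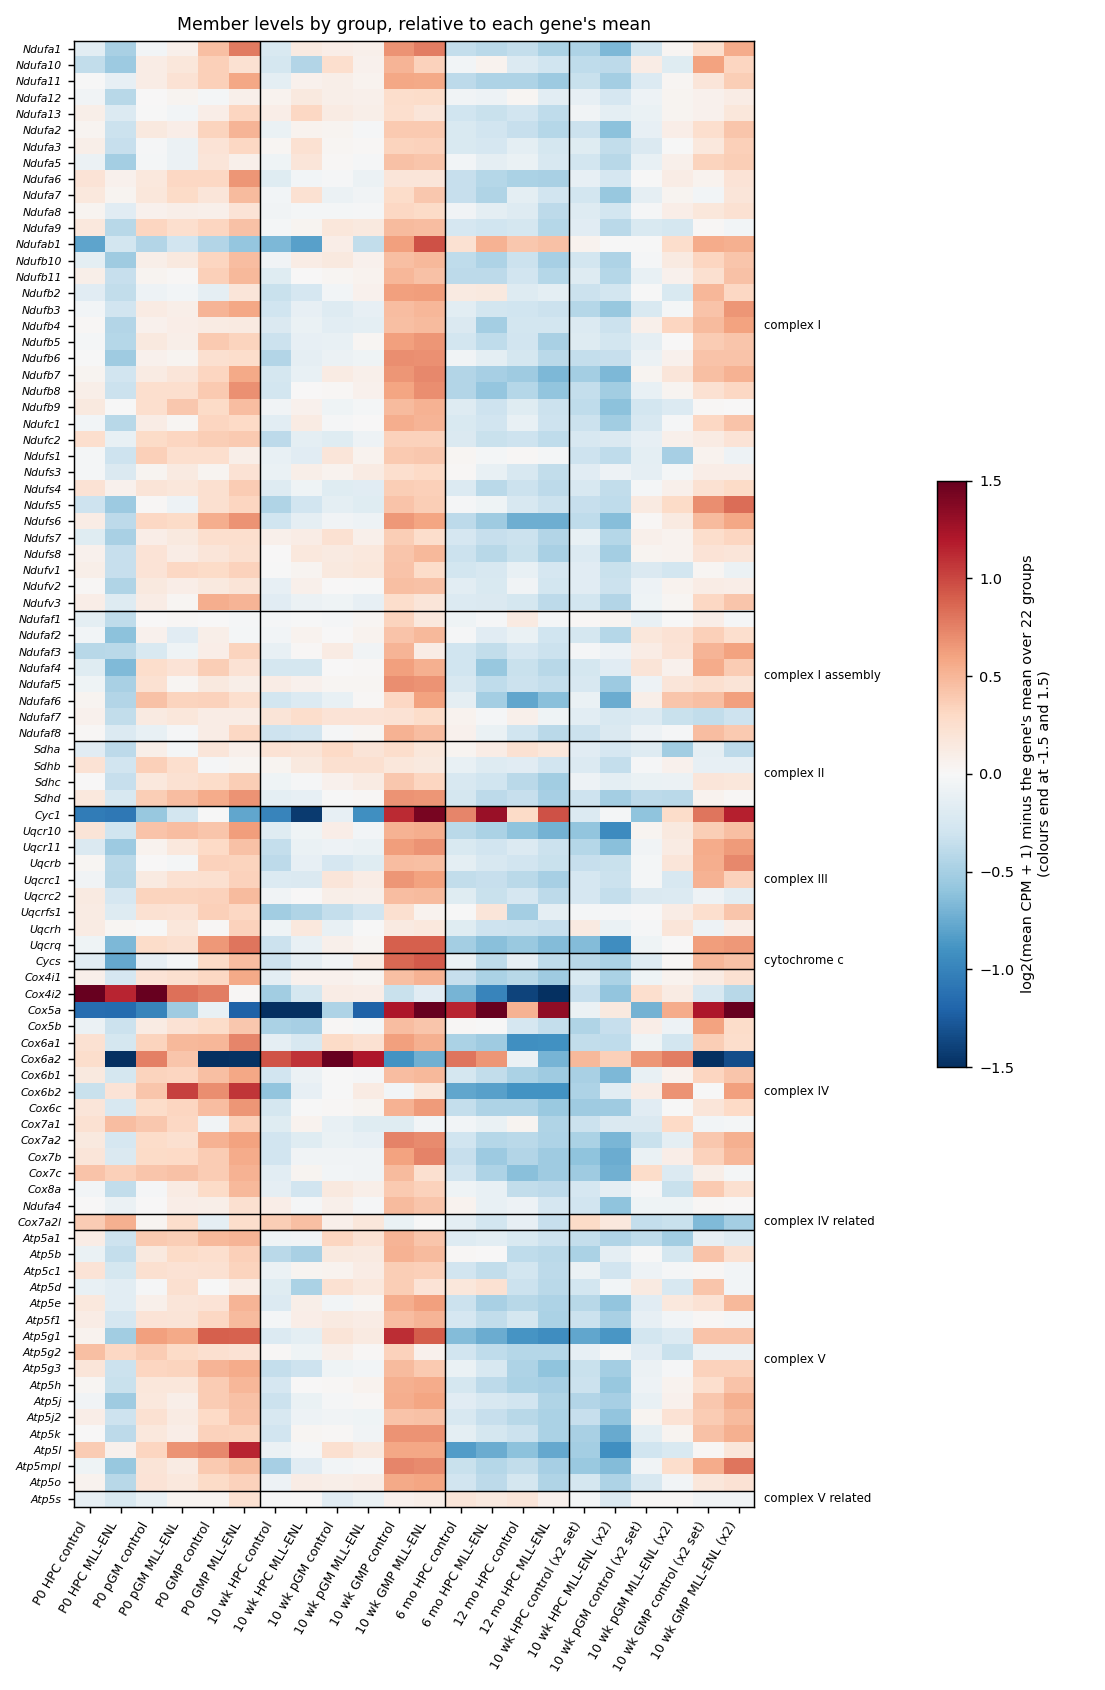
Level of the members of the score but 1 (rows, by complex) in 22 groups (columns), as log2 of the mean CPM plus 1 minus the gene's own mean over the groups, with colours ending at -1.5 and 1.5. Most rows are red in GMP columns and blue in HPC columns other than P0 control HPC, while Cox4i2, Cox6a2, Cox6b2, Cox5a and Cyc1 follow other patterns.

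In P0 HPC, 8 of 92 tested members fell with MLL-ENL and 1 rose, and most of the others had a negative fold change that did not pass the test. The fold change (log2, MLL-ENL against control) was negative for 88 of 92 tested members, with a median of -0.41 and a middle range from -0.48 to -0.27, while the median over all genes was -0.03. In edgeR's quasi-likelihood test with Benjamini-Hochberg adjustment over all genes, the members that fell were 8.70% of those tested (against 5.18% of all genes) and the 1 that rose 1.09% (against 2.42%). An unadjusted p under 0.05 was reached by 56.5% of members and by 22.2% of all genes, and in 44 members (47.8%) the 4 MLL-ENL and the 4 control libraries did not overlap, against 17.7% of all genes. The median was -0.39 in complex I, -0.48 in its assembly factors, -0.42 in complex II, -0.41 in complex III, -0.38 in complex IV and -0.46 in complex V, so no complex stood out. The score was 6.75 ± 0.14 with MLL-ENL and 7.10 ± 0.12 in controls (SD, n = 4 each).

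The largest declines in P0 HPC were in tissue isoforms of complex IV. Cox4i2 was at 14.3, 20.9, 22.8 and 15.1 CPM in the MLL-ENL libraries (numbers 2 to 5) and at 32.4, 53.3, 65.7 and 41.9 in the controls. All MLL-ENL values lay below all control values, and Cox4i2 fell by 1.45 on the log2 scale (SE 0.26, edgeR adjusted p = 0.00037). Cox6a2 was at 1.25, 2.89, 2 and 2.3 CPM with MLL-ENL and at 10, 12.1, 8.14 and 8.46 in controls. It fell by 2.24 (SE 0.44, edgeR adjusted p = 0.0011), and both isoforms remained called whichever of the 8 libraries was left out. Ndufa4l2, a relative of the complex IV subunit Ndufa4 that is known to be induced by low oxygen, fell too (edgeR adjusted p = 0.013), from 46 counts over the 4 controls to 3 counts with MLL-ENL. That is a ratio of 17.3 in pooled CPM, with an exact 95% interval of 5.57 to 87.1 that covers counting error only. In contrast, the testis isoform Cox6b2 rose by 0.50 (SE 0.15, edgeR adjusted p = 0.031), with 63.6, 78.6, 86.9 and 72.2 CPM against 50.5, 51.5, 58.4 and 46.2.

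Common subunits that fell in P0 HPC came from complexes I, II and V. Ndufa9, an accessory subunit of complex I, fell by 0.61 (SE 0.17, edgeR adjusted p = 0.019), with 336, 483, 375 and 375 CPM against 551, 575, 605 and 592. Sdhb, the iron-sulfur subunit of complex II, fell by 0.55 (edgeR adjusted p = 0.03). In Ndufa9 and Sdhb the groups did not overlap, and library 3 was the highest MLL-ENL library in each. The ATP synthase genes Atp5c1 (gamma subunit) and Atp5g1 (a c subunit gene) fell by 0.51 and 0.66 (edgeR adjusted p = 0.037 and 0.044). Central members that did not pass the test were also negative: Ndufv1 had -0.48, Atp5a1 -0.46, Uqcrc1 -0.41, Cox4i1 -0.37 and Sdha -0.27. Leaving out 1 library left 2 to 7 called members, with 5 without control 2, 4 without MLL-ENL 2 or 5, and 2 without MLL-ENL 4, and the median stayed between -0.45 and -0.34. With no filter on low counts 4 members fell and none rose, against 495 and 288 of all 27002 genes. With DESeq2 6 fell and 1 rose, against 696 and 539 of 14893 genes. With RLE scaling 5 fell and 1 rose, against 582 and 421 of 14899 genes. Sdhb, Atp5c1 and Atp5g1 were then no longer called (edgeR adjusted p = 0.061, 0.082 and 0.073).

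Other gene lists and other cells' markers moved in the same P0 HPC comparison. Of 20 mitosis genes 14 fell, with a median of -0.68, and 5 of 76 genes of the mitochondrial ribosome (median -0.31), 4 of 13 of the citric acid cycle (-0.41), 3 of 20 of glycolysis (-0.27) and 5 of 85 of the cytoplasmic ribosome (-0.34) fell, while 1 of the last rose. Of 10 monocyte and dendritic markers 8 fell, with summed levels of 13437 to 33462 CPM in controls and 2845 to 5331 with MLL-ENL, against 2129 to 3524 in P0 control pGM. Of 7 mast cell and basophil markers 5 fell, from sums of 781 to 2488 CPM to sums of 50.6 to 119, and no marker of these lists was at 0 in all libraries of a group. Granulocyte-monocyte markers summed to 2806 to 4704 CPM in controls and 891 to 1973 with MLL-ENL, and the megakaryocyte list to 488 to 746 and 803 to 1382, with Gp1bb at 0 in all MLL-ENL libraries. The part of these shifts in the values of the members was not tested. In bulk libraries, fewer cells of a type and less RNA per cell cannot be told apart.

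**Figure D3:**
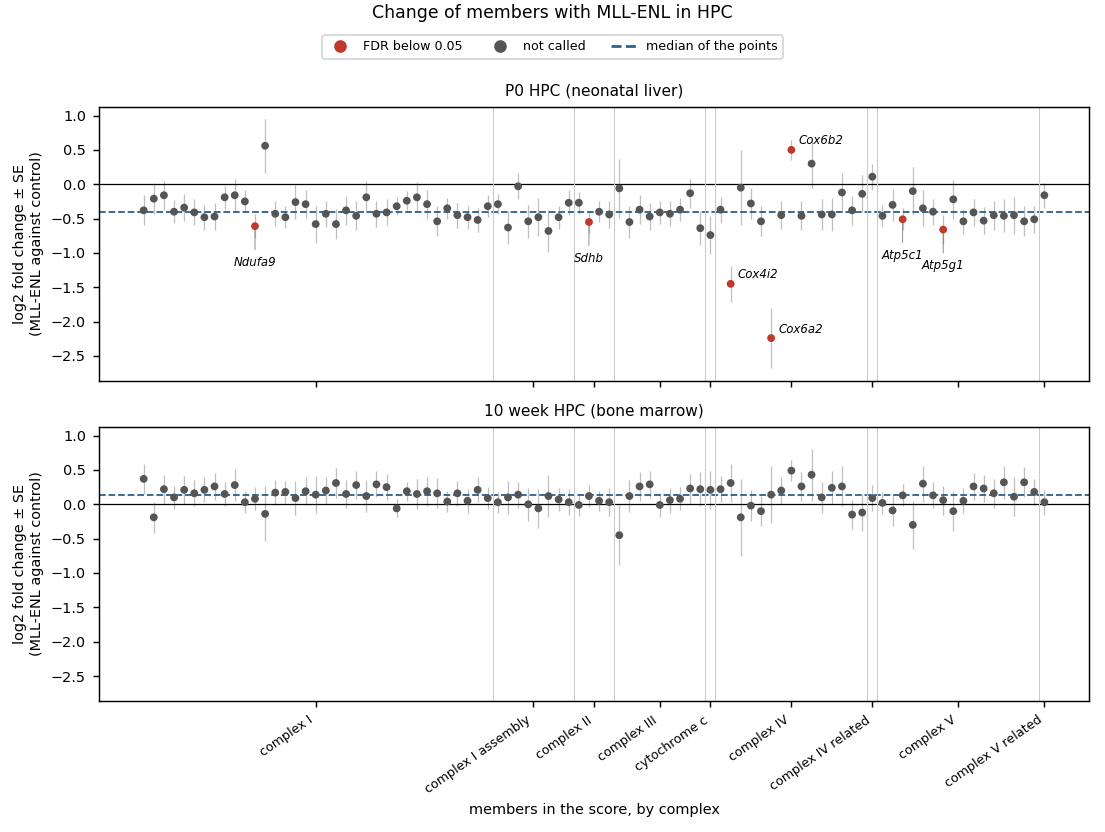
Log2 fold change (MLL-ENL against control, with SE) of the members of the score but 1, ordered by complex, in P0 HPC (top) and 10 week HPC (bottom), with red for members past an adjusted p of 0.05 and a dashed line at the median of the points. At P0 nearly all points lie under 0 around -0.41, with Cox4i2 and Cox6a2 far below, and at 10 weeks they lie around 0.14 with none called.

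Outside P0 HPC, MLL-ENL went with few or no calls. In P0 pGM 1 of 92 members fell (1.09%, against 0.188% of all genes) and 0 rose (against 0.161%): Cox4i2 was at 15.4, 16.1, 13.1 and 13.2 CPM with MLL-ENL and at 29.4, 34 and 36.7 in the 3 controls. It fell by 1.21 (SE 0.28, edgeR adjusted p = 0.031), without overlap, but the call was lost when any 1 of the 7 libraries was left out and in the fit with the replicate number as a block (0 called). Cox6b2 was at 128, 128, 146 and 135 CPM with MLL-ENL in P0 pGM and at 78.9, 85.5 and 97.8 in controls. Its difference of 0.61 (SE 0.16) was not called (edgeR adjusted p = 0.11), though the groups did not overlap. In P0 GMP no member was called by edgeR or DESeq2, against 0.0805% of all genes higher and 0.0336% lower in edgeR, and 5 had an unadjusted p under 0.05. Cox4i2 had 8.84, 7.99, 10 and 4.46 CPM with MLL-ENL and 15.7, 15, 13.9 and 11 in controls, a difference of -0.82 on the log2 scale (SE 0.27, edgeR adjusted p = 0.45). So Cox4i2 libraries with MLL-ENL lay below all controls in each P0 population.

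At 10 weeks, 6 months and 12 months no member was called in any of 8 genotype comparisons, by edgeR or by DESeq2, with or without the libraries labelled 73. The number with an unadjusted p under 0.05 in edgeR was 1 in 10 week HPC, 0 in pGM and 1 in GMP, 1, 3 and 1 in MLL-ENL (x2) HPC, pGM and GMP, 0 at 6 months and 2 at 12 months. Without the libraries labelled 73 it was 3 in 10 week HPC and 0 in pGM. A missed threshold does not show that the groups were alike. Few genes of any kind were called there. Of all genes, 0.121% were higher and 0.0537% lower in 10 week HPC, 0.0537% and 0.0403% in pGM, and 0.0134% and 0.00671% in GMP. Without the libraries labelled 73 they were 0.134% and 0.0403% in HPC and 0.0202% and 0.0269% in pGM. With MLL-ENL (x2) the shares were 0.568% and 0.428% in HPC, 0.4% and 0.435% in pGM, and 0.266% and 0.631% in GMP. At 6 and at 12 months 0.00766% were higher and 0% lower. Cox6b2 had the smallest p in several of them, with 0.49 in 10 week HPC (edgeR adjusted p = 0.36; 0.39 and 0.52 without the library labelled 73), 0.59 in MLL-ENL (x2) pGM (0.48) and 0.64 in MLL-ENL (x2) GMP (0.44). Its values in MLL-ENL (x2) GMP were 76.7, 73.4 and 153 CPM against 78, 63.8, 59.7 and 58.3, so library 5900 carried most of that difference. In MLL-ENL (x2) pGM they were 83.2, 91.4 and 142 CPM against 72.6, 66.6, 70.7 and 71.7, without overlap and again highest in 5900. The member median was 0.14 in 10 week HPC (0.18 without the library labelled 73), -0.02 in 10 week pGM (0.03 without it), -0.14 in MLL-ENL (x2) HPC, -0.09 at 6 months and -0.11 at 12 months. At 12 months Cox6a2 and Cox7a1 had the lowest p, with -0.72 and -0.92 (both edgeR adjusted p = 0.73).

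The genotype effect in HPC differed between P0 and 10 weeks in 2 of 92 members (0 higher, against 0.356% of all genes, and 2 lower, 2.17%, against 1.24%). Mean transgene CPM differed as well, with 15.6 in P0 and 4.62 in 10 week MLL-ENL HPC, and its part was not tested. The difference of the effects was -1.76 for Cox4i2 (SE 0.38, edgeR adjusted p = 0.0084) and -2.38 for Cox6a2 (SE 0.60, edgeR adjusted p = 0.028). Over all members its median was -0.53, and 46.7% of members and 14.0% of all genes had an unadjusted p under 0.05. Without the libraries labelled 73, Cox4i2 was called (-1.62, edgeR adjusted p = 0.031) and Cox6a2 was not (-1.89, edgeR adjusted p = 0.13). The median was then -0.54, with 32 members at an unadjusted p under 0.05, and 0.316% of all genes were called higher and 0.713% lower. Leaving out 1 library gave 1 to 3 calls. The effect in P0 HPC minus that in P0 GMP had a median of -0.53 as well, with 37 members at an unadjusted p under 0.05 but none called by edgeR (against 0.0738% of all genes higher and 0.389% lower) and 1 by DESeq2. The smallest p there was that of Cox6a2 (-2.56, edgeR adjusted p = 0.059). In pGM and GMP the effect at P0 minus that at 10 weeks gave no member call by edgeR or DESeq2, with 2 members at an unadjusted p under 0.05 in each. Of all genes 0.00671% were called higher in pGM and 0.00671% lower in GMP. Without the libraries labelled 73, pGM again gave no member call, with a median of -0.01 (0.01 with them), 1 member at an unadjusted p under 0.05, and 0.0134% of all genes higher. The effect in HPC minus that in GMP of the x2 set, and that at 12 minus 6 months, gave none either (1 and 0 at an unadjusted p under 0.05), with 0.0771% of all genes higher and 0.021% lower in the first of these and 0% in the second.

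**Figure D4:**
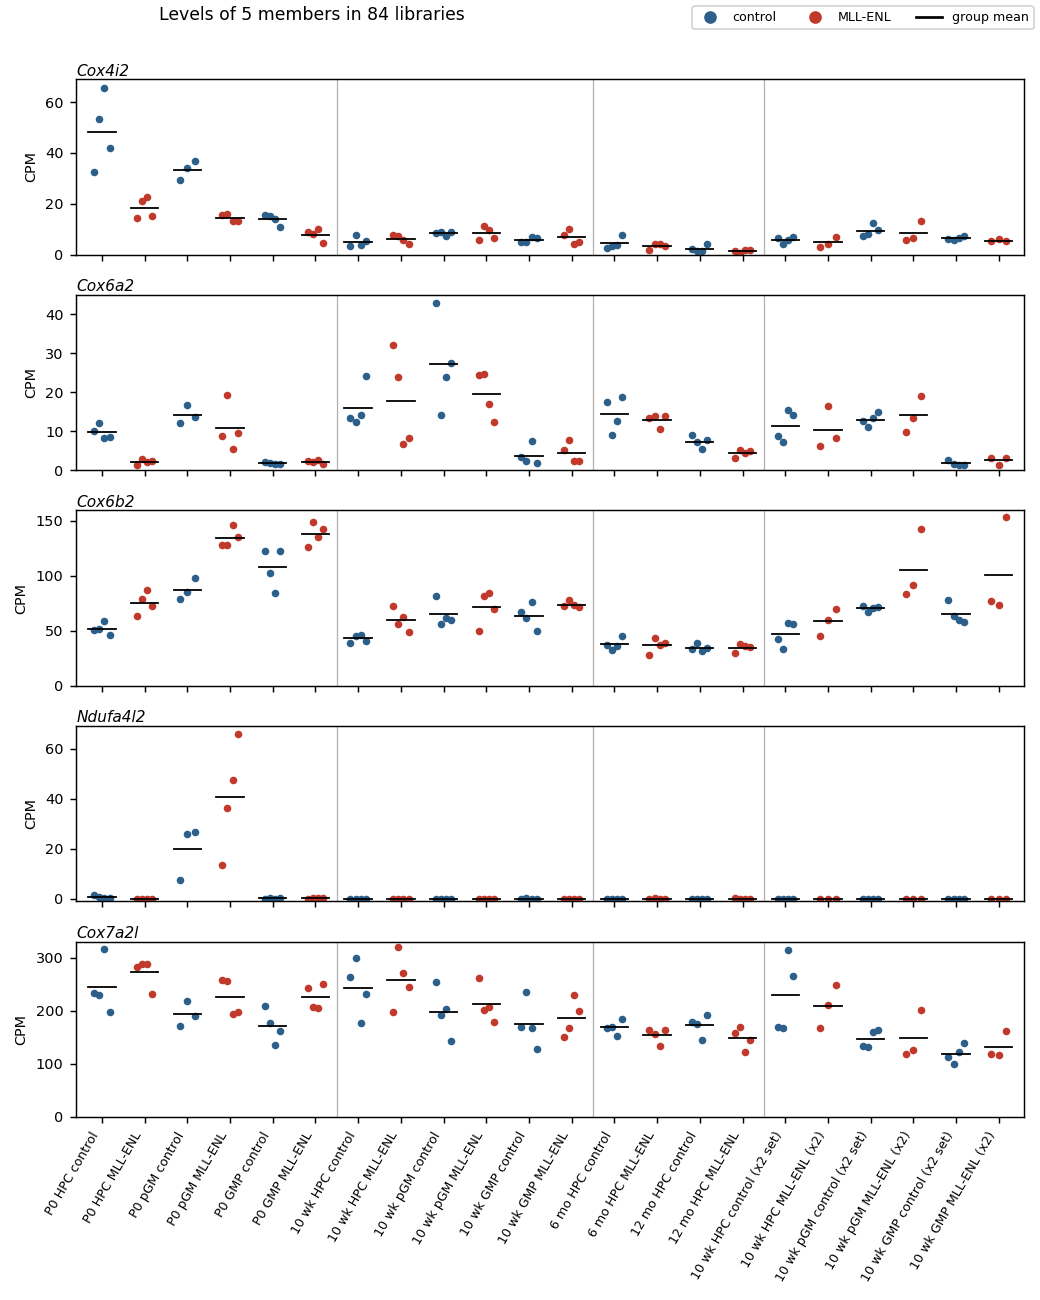
CPM (vertical axes, each from 0) of Cox4i2, Cox6a2, Cox6b2, Ndufa4l2 and Cox7a2l in 84 libraries by group, with blue points for control, red for MLL-ENL and a bar for the group mean. Cox4i2 is high in P0 controls and lower in each P0 MLL-ENL group, Cox6a2 is low in every GMP group and in P0 MLL-ENL HPC, and Ndufa4l2 is high in P0 pGM.

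Of the members called between P0 liver and 10 week marrow, Cox4i2 and Ndufa4l2 changed most in HPC and pGM, and Cox4i2 in GMP. In control HPC, 5 of 92 members were higher at P0 (5.43%, against 9.0% of all genes) and 0 lower (against 7.28%). Cox4i2 averaged 48.3 CPM at P0, and was at 3.44, 7.85, 3.59 and 5.46 CPM at 10 weeks, and was higher at P0 by 3.26 on the log2 scale (SE 0.29, edgeR adjusted p = 2.1e-11). Ndufa4l2 had 46 counts at P0 and 0 over the 4 libraries at 10 weeks, so it was at least 15.3-fold higher (against a floor of 3 counts over the group). The others were Uqcrfs1, the Rieske iron-sulfur protein of complex III (0.68, edgeR adjusted p = 0.0044), Ndufc2 of complex I (0.65, 0.014) and Atp5g3 (0.55, 0.031). Leaving out 1 library gave 3 to 9 calls, with 3 without P0 control 4 or 10 week control 76 or 87, and 9 without 10 week control 80. All 10 monocyte and dendritic markers and 5 of 7 mast cell and basophil markers were also higher at P0 in this comparison, and their part in it was not tested.

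In control pGM 3 members were higher at P0 (3.26%, against 5.17% of all genes) and 0 lower (against 3.99%). Ndufa4l2 was at least 456-fold higher, with 836 counts over 3 libraries at P0 and 0 over 4 at 10 weeks, Cox4i2 was higher by 1.98 (SE 0.28, edgeR adjusted p = 3.5e-06) and Uqcrfs1 by 0.61 (edgeR adjusted p = 0.028). The counts of Ndufa4l2 in P0 pGM (836, and 2525 with MLL-ENL) let it pass the low-count filter, and it was tested in the first set only. Its calls against P0 pGM are counted but give no separate support. In control GMP Cox6b2 (0.79, edgeR adjusted p = 0.00023) and Cox4i2 (1.27, 0.00099) were higher at P0 (2.17%, against 7.95% of all genes), and Ndufb2 of complex I was lower (-0.75, edgeR adjusted p = 0.045; 1.09%, against 4.29%). So Cox4i2 was higher at P0 in all 3 populations, and the common subunits rarely passed the test. From 6 to 12 months 1 of 91 members changed in control HPC (1.10% lower, against 0.138% of all genes). Atp5d, the delta subunit of ATP synthase, was at 236, 249, 266 and 262 CPM at 12 months and 337, 304, 385 and 410 at 6 months, and fell by 0.50 (SE 0.10, edgeR adjusted p = 0.039). No filter on low counts ended this call and DESeq2 made 3, and 6 of the 8 single libraries ended it when left out.

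From pGM to GMP at 10 weeks, many subunits rose together, in both independent sets of controls. In the first set 18 of 92 members were higher in GMP (19.6%, against 5.76% of all genes) and 1 was lower (1.09%, against 9.97%), and 84 were positive with a median of 0.42 (all genes -0.04). In the x2 set 12 of 91 were higher (13.2%, against 8.25%) and 1 lower (1.10%, against 14.3%), with a median of 0.34. The sets share no libraries: of 91 members tested in both, 86 had the same sign (80 of them positive), and so did 81.9% of all genes. The 10 members called in both were 52.6% of the 19 calls of the first set and 76.9% of the 13 of the x2 set, and the shares over all 13930 genes tested in both were 79.6% and 57.8%. They were Ndufb3, Ndufaf8, Cyc1, Uqcr11, Uqcrq, Cycs, Cox6a2, Cox7a2, Atp5g1 and Atp5mpl. By complex, the medians in the first set were 0.41 in complex I, 0.12 in complex II, 0.58 in complex III, 0.37 in complex IV and 0.45 in complex V.

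**Figure D5:**
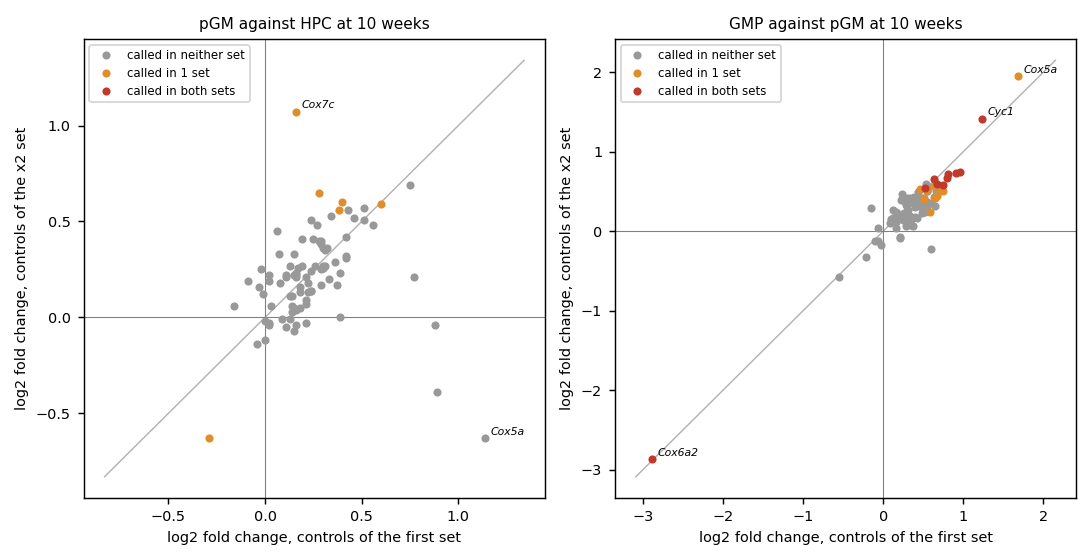
Log2 fold change of each member in the controls of the first set (horizontal) and of the x2 set (vertical), for pGM against HPC (left) and GMP against pGM (right), with orange for members called in 1 set, red in both, and the diagonal as a line. On the right 80 of 91 points are positive in both sets and Cox6a2 lies far down at -2.89 and -2.87, and on the left no point is called in both by the main fits.

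The muscle isoform Cox6a2 went the other way. In the first set it was at 3.32, 2.38, 7.36 and 1.88 CPM in GMP and 42.9, 14.1, 23.9 and 27.6 in pGM, and fell by 2.89 (SE 0.44, edgeR adjusted p = 8.8e-06). In the x2 set it was at 2.69, 1.58, 1.45 and 1.43 CPM in GMP and 12.5, 11.1, 13.5 and 14.9 in pGM, and fell by 2.87 (SE 0.36, edgeR adjusted p = 3.2e-06). At P0 it had 2.14, 1.87, 1.47 and 1.56 CPM in GMP against 12, 16.6 and 13.6 in pGM and fell by 2.99 (SE 0.48, edgeR adjusted p = 1.4e-05). So GMP were below pGM without overlap in all 3 sets of controls. Its exons overlap those of Itgad over 10.3% of their bases, so some of its reads could belong there.

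Among the rising members, Atp5g1 was at 25.7, 50.1, 37 and 43.4 CPM in GMP and 19.2, 21.7, 16 and 24.4 in pGM of the first set (0.91, SE 0.21, edgeR adjusted p = 0.0016). In the x2 set it was at 20.9, 24, 28.9 and 22.5 CPM against 14.4, 14.1, 14.3 and 14.6 (0.73, SE 0.20, edgeR adjusted p = 0.0094). GMP lay above pGM without overlap both times. Cycs, the electron carrier between complexes III and IV, rose by 0.96 and 0.74 (edgeR adjusted p = 0.014 and 0.0082), and Cox7a2 of complex IV by 0.81 and 0.72 (0.011 and 0.0083). Of complex III, Uqcrq, a small subunit, rose by 0.80 and 0.67, with 458, 495, 558 and 478 CPM in GMP of the x2 set against 268, 301, 365 and 296 in pGM. Uqcrfs1 (0.58), Uqcrb (0.69), Sdhd (0.64), Ndufb5 (0.71) and Ndufs6 (0.67) were called in the first set and not in the x2 set, and Uqcrc1 (0.53) and Ndufb7 in the x2 set and not in the first, with the difference between the sets not tested. The promoters of Cycs, Sdhd and Atp5g1, and the start of Ndufs6, are among the sequences shown above.

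The count of calls in the first set depended on single libraries. GMP library 80 had the highest score of all, 7.89, and GMP library 76 a score of 7.02, near that of pGM. There were 4 calls without GMP 80, 45 without GMP 76, 12 without GMP 87, 6 without pGM 76 and 9 without pGM 87. In the x2 set the count stayed at 6 to 12, with 6 without pGM 4892. With the number as a block, 29 members rose and 1 fell in the first set (8.24% and 13.4% of all genes), and 42 rose and 2 fell in the x2 set (13.4% and 18.5%). Mast cell and basophil markers summed to 568 to 3321 CPM in first-set GMP and 334 to 386 in pGM (Mcpt4, Tpsab1 and Tpsb2 at 0 in pGM, Tpsab1 in GMP), and to 456 to 1052 and 246 to 475 in the x2 set (Mcpt4 and Tpsab1 at 0 in both). Their part was not tested.

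From HPC to pGM the changes were smaller. At 10 weeks Cox6b2 rose in the first set (0.60, edgeR adjusted p = 0.0099), the 1 call of 92 members (1.09% higher, against 2.71% of all genes, and 0 lower, against 3.5%). In the x2 set 4 of 91 were higher (4.4%, against 5.85%): Ndufb7 of complex I (0.56, edgeR adjusted p = 0.0064), Uqcr10 (0.65) and Uqcrq (0.60) of complex III, and Cox7c of complex IV (1.07). Cox7a2l, known for joining complexes III and IV in supercomplexes, was lower there (-0.63, edgeR adjusted p = 0.049; 1.10%, against 6.37%). In the main fits, which treat no libraries as paired, no member was called in both sets. Still, 72 of 91 had the same sign (70 of them positive), as did 74.9% of all genes. Over all genes, those called in both were 73.2% of the calls of the first set and 35.7% of those of the x2 set. With the number as a block 3 rose in the first set (3.93% of all genes), and 21 rose and 1 fell in the x2 set (10.8% and 9.94%). Calls shared by the sets were not counted with the block. Leaving out 1 library of the x2 set gave 1 to 9 calls: 1 without pGM 5898, 2 without HPC 5899, 3 without HPC 4894 or pGM 4892, and 9 without HPC 5898. In the first set it gave 1 to 3, with 3 without HPC 80 and 2 without HPC 87 or 88.

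At P0 the steps carried few calls beyond isoforms. From HPC to pGM, Cox6b2 rose (0.76, edgeR adjusted p = 0.0014) and so did Ndufa4l2, with a ratio of 25 in pooled CPM (exact 95% interval 18.6 to 34.4), as 2.17% of members against 3.19% of all genes, and 0 were lower (against 4.52%). From pGM to GMP 3 fell (3.26%, against 7.50% of all genes) and 0 rose (against 6.43%): Cox6a2 as given above, Cox4i2 (-1.26, edgeR adjusted p = 0.001) and Ndufa4l2, 119 times higher in pGM (exact interval 60 to 276). Ndufa4l2 was thus high in P0 pGM only among control groups of the first set, with 7.36, 26.1 and 26.9 CPM. Both of its step calls compare the population through which it passed the low-count filter, so they describe that level and give no separate support. In MLL-ENL P0 pGM it had 40.9 CPM pooled from 2525 counts, and the genotypes did not pass the test. The step from pGM to GMP at P0 minus that at 10 weeks had a median of -0.31 over members, with none called by edgeR (against 0.51% of all genes higher and 0.101% lower), 2 at an unadjusted p under 0.05 and 1 called by DESeq2. For the step from HPC to pGM the same difference had a median of -0.06, with none called by edgeR (against 0.289% and 0.812%), 1 at an unadjusted p under 0.05 and 1 called by DESeq2.

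Not all members followed the pathway. Within groups the SD of log2 CPM was 1.0 for Cox5a, 0.71 for Cyc1, 0.64 for Atp5d and 0.60 for Ndufab1, and the correlation of each with the score of the rest over the 84 deviations from group means was near 0 (-0.09, 0.06, 0.11 and -0.01). Cox5a and Cyc1 rose and fell with each other instead, with Pearson's r 0.94 and Spearman's rho 0.95, and Pearson's r 0.94 without the 2 farthest libraries. In P0 control GMP, Cox5a was at 18.8, 23.7, 112 and 26.8 CPM and Cyc1 at 35.7, 40.8, 122 and 39.7, both high in library 4. In 12 month control HPC Cox5a was at 22.5, 140, 103 and 18.5 CPM, a wide spread among 4 libraries of a group. Ndufab1 followed them less closely (r 0.79 with Cyc1, 0.74 with Cox5a). Atp5d, Atp5b and Ndufa10 also moved together (r 0.93 and 0.91, rho 0.87 and 0.79 with Atp5d). They were not set apart, as Cox5b and Cox8a followed Atp5d less closely (r 0.74 and 0.71), while Uqcrh had r -0.47 with it. Atp5d had little relation to Cyc1 (r 0.26). Atp5d fell to 33.4 CPM in a 10 week MLL-ENL HPC library while the others of that group had 416, 212 and 251. The calls for Cox5a and Cyc1 from pGM to GMP (1.68 and 1.23 in the first set, edgeR adjusted p = 0.032 and 0.045) thus rest on genes with a wide spread between replicates.

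Over libraries, the score moved with both ribosome lists, mitochondrial and cytoplasmic, and with assembly factors outside the symbol rule. Its deviations from group means correlated with those of the mitochondrial ribosome list (Pearson's r 0.95, Spearman's rho 0.93, r 0.94 without the 2 farthest of 84 libraries), of assembly factors outside the symbol rule (r 0.85) and of the cytoplasmic ribosome (r 0.85), and less with the citric acid cycle list (r 0.46). It had little relation to the subunits encoded in mitochondrial DNA (r 0.03), glycolysis (-0.03) or mitosis genes (-0.07). Over the 22 group means Pearson's r was 0.97 for the mitochondrial ribosome (rho 0.96, r 0.96 without the 2 farthest groups), 0.95 for the assembly factors, 0.87 for the cytoplasmic ribosome and 0.84 for the citric acid cycle. It was 0.57 for glycolysis (rho 0.55, r 0.45 without the 2 farthest groups), 0.15 for the subunits encoded in mitochondrial DNA and -0.13 for mitosis genes. All lists share the libraries and their scaling, and the score also varied with the number of genes detected (r -0.40) and the library total (r -0.26). Of the 13 mitochondrial DNA-encoded subunit genes, 7 or 8 were tested per set, and none was called in any of the 29 comparisons by edgeR or DESeq2. At an unadjusted p under 0.05 edgeR listed 3 of them from 6 to 12 months, 1 in GMP of P0 against 10 weeks and 1 in GMP against pGM of the x2 set. From pGM to GMP at 10 weeks 9 of 76 mitochondrial ribosome genes rose in the first set, and 14 rose and 1 fell in the x2 set.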

How the data were processed

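Per the labels' protocols, extraction used Qiagen's RNeasy micro plus and library preparation Clontech's SMARTer chemistry. The deposited table holds raw counts of reads per gene. The submitters' processing notes name STAR 3.0.4, Subread and featureCounts 1.4.5. The sources used here name no genome build, gene annotation or strand option for the counting, so reads of a gene and an antisense partner may not be told apart. Symbols, biotypes and exon lengths came from GENCODE vM21, which matched 40340 of 41388 mouse genes. No column of the table was left without a sample (0).

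The members, lists and tests were chosen with earlier results of these data known. Counts were fitted as deposited with edgeR 4.0.16 (R 4.3.3, limma 3.58.1): filterByExpr, TMM scaling, 1 mean per group, a quasi-likelihood F test, and Benjamini-Hochberg adjustment over all genes tested, with a member called at an adjusted p under 0.05. The first set (47 libraries), the 6 and 12 month set (16) and the x2 set (21) were fitted apart, on 14899, 13059 and 14260 genes. Levels are CPM scaled by TMM over all 84 libraries, with a prior count of 2 on the log2 scale. The script was checked on simulated data. The 29 comparisons were 11 of genotype, 4 of age, 6 of population and 8 differences of effects. Named genes were central members and paralogs, up to 10 called members in each direction per comparison with a mean log2 CPM of at least 1, and where none was called up to 3 with the smallest p. Ndufa4l2 lies under that level in some groups and is among the named paralogs.

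Alternatives were RLE scaling, no filter, DESeq2 1.42.0, each library left out in turn, the libraries labelled 73 left out, subunits without assembly factors and related genes, and a replicate block. The main fits treated no libraries as paired, and the block was run as an alternative only. As a check, deviations from group means of same-numbered libraries were asked to correlate above 0.1 in every pair. That held for P0 genotype in pGM (0.16 to 0.42) and GMP (0.2 to 0.52), for GMP against pGM at P0 (0.17 to 0.33), and for both steps at 10 weeks in the first set (0.17 to 0.34) and the x2 set (0.19 to 0.32). It did not hold for P0 genotype in HPC or for pGM against HPC at P0 (lowest 0.07 in both), where the block was run all the same. In each 10 week step all 4 numbers correlated best with their own number, a pairing that the main step counts leave out. The values of 1 member, which stays in all counts, are not reported here.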

Additional observations from a re-analysis of the deposited data

Results flagged for a closer look

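In 18 groups of 4 libraries 3 held a score far from the rest, and over 90 groups of 4 values (the score and 4 isoform genes) 7 did, where chance alone would set apart about 1 in 20. Library 3 of P0 MLL-ENL HPC scored 6.96 and the others 6.67, 6.69 and 6.70 (controls 7.02 to 7.28). Library 1704 of 6 month MLL-ENL HPC scored 6.61 (others 6.88, 6.88 and 6.89), and library 9125 of 12 month MLL-ENL HPC 6.52 (others 6.71, 6.71 and 6.72). Cox6a2 was at 24.1 CPM in 10 week control HPC 88 (others 12.4, 13.3 and 14.2), at 10.6 in 6 month MLL-ENL HPC 1485 (others 13.5, 13.9 and 14.0), and at 2.69 in x2-set control GMP 4892 (others 1.43, 1.45 and 1.58). Cox7a2l was at 232 CPM in P0 MLL-ENL HPC 5 (others 282, 287 and 287).

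The genotype effect differed between P0 and 10 week HPC, by the test of the difference, for Cox4i2 (-1.76) and Cox6a2 (-2.38), with the call for Cox6a2 lost without the libraries labelled 73.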

How the results depend on the processing

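No called member changed sign under any alternative run. Of the 29 member medians, 12 took both signs when 1 library was left out, and those 12 were at most 0.14 in size with all libraries. Among them were the genotype median in 6 month HPC (-0.15 to 0.08) and that of 12 against 6 months (-0.15 to 0.07). RLE scaling kept all 29 counts of called members within 1.5 times, and all score differences moved by less than 0.184 under every alternative. Of the 53 calls chosen by the rule for named genes (67 in all), 5 lost the call with RLE scaling, 2 with DESeq2 and 13 with no filter. With no filter, calls went to 4 for P0 HPC genotype and 0 for 12 against 6 months. DESeq2 called 2 for P0 pGM genotype, 3 for 12 against 6 months, and 1 each for the P0 genotype effect in HPC minus GMP and for both population steps at P0 minus 10 weeks. Subunits alone gave 1 call for pGM against HPC at P0, and leaving out the libraries labelled 73 gave 1 for the genotype effect at P0 minus 10 weeks in HPC. The cause of each was not tested.

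With the replicate block, the calls were 0 for P0 pGM genotype, 5 for pGM against HPC at P0 (where not every pair's correlation passed 0.1), 3 and 30 for pGM against HPC and GMP against pGM at 10 weeks, and 22 and 44 for the same steps in the x2 set. It moved no other count by over 1.5 times.

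Leaving out each library in turn gave these ranges of calls: P0 HPC genotype 2 to 7, P0 pGM genotype 0 to 0, P0 against 10 weeks 3 to 9 in HPC and 2 to 5 in GMP, 12 against 6 months 0 to 2, pGM against HPC 1 to 3 and GMP against pGM 4 to 45 at 10 weeks, 1 to 9 and 6 to 12 in the x2 set, the genotype effect at P0 minus 10 weeks in HPC 1 to 3, and pGM against HPC at P0 minus 10 weeks 0 to 1. Without library 5900 the member median was -0.08 in MLL-ENL (x2) pGM and -0.14 in MLL-ENL (x2) GMP, against 0.12 and 0.06. Members at a few CPM, such as Cox4i2 in marrow and Cycs, and members with copies elsewhere are limited by their counts, and p-values rest on 3 or 4 libraries a group.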
